A study of Homo sapiens with 9 samples.

Results

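The genes described here are 50 genes of the mitotic spindle, the kinetochore and cytokinesis, measured in the colorectal cancer cell line RKO. They are the array probes whose gene name is on a list of 50 symbols, out of 36337 gene names on the array. The list matched 61 of the 50599 probes, and each gene was represented by its brightest probe. All 50 genes passed the filter on dim probes, and all 50 were well above background on all 9 arrays. The cells were studied to learn how gene expression responds to loss of UHRF1, a protein needed to maintain DNA methylation, and to inhibition of histone deacetylases (HDACs).

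RKO cells received a control siRNA (siCONT) or an siRNA against UHRF1 (siUHRF1) for 72 h and then mock treatment (ethanol) or 300 nM trichostatin A (TSA), an HDAC inhibitor, for 24 h. This gave 4 groups of 2 arrays each: siCONT, siUHRF1, siCONT + TSA and siUHRF1 + TSA. Replicate 1 of both UHRF1-depleted groups carried siUHRF1-1 and replicate 2 carried siUHRF1-2, so these arrays differ in the siRNA and not only as replicates. A further single array came from RKO cells given 1 µM 5-aza-2'-deoxycytidine (5-aza-dC), a DNA demethylating drug, for 72 h with no siRNA. A mock array for this treatment was not analysed here, and the siCONT arrays, which had been transfected, served as its reference. RKO is 1 cell line in culture, and nothing in the labels says whether the arrays of a group came from separate cultures, so p-values measure only the spread between arrays, which may be technical. Among epithelial and intestinal markers, KRT8, KRT18, CDX1 and CDX2 were above background on all 9 arrays, whereas CDH1, VIL1 and LGALS4 were above background on none. Of markers of fibroblasts, immune cells and endothelium, COL1A1, CD68 and CDH5 were above background on all 9 arrays and PECAM1 on none.

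Array brightness, taken as the signal's 75th percentile, lay between 245 and 338 for the 8 siRNA hybridisations and reached 822 for 5-aza-dC. All siRNA arrays shared 1 slide and 1 scan. The mock arrays filled its row 1 and the TSA arrays its row 2, and the siCONT arrays filled its columns 1 and 2 and the siUHRF1 arrays its columns 3 and 4, so position and treatment cannot be told apart. The array of 5-aza-dC cells came from a different slide and scan, and its slide and its treatment cannot be told apart either. UHRF1 had log2 levels of 2.69 and 2.69 in siCONT, 0.36 and 0.07 in siUHRF1, 2.87 and 2.86 in siCONT + TSA, -0.34 and -0.62 in siUHRF1 + TSA and 3.69 with 5-aza-dC. A log2 level is the log2 signal relative to the array's own 75th percentile, which is 0. The arrays labelled siUHRF1 were therefore below the siCONT arrays of the same treatment in every case.

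In mitosis, the duplicated chromosomes are condensed, attached to spindle microtubules at their kinetochores and pulled apart, after which the cell divides by cytokinesis. The chromosomal passenger complex (AURKB with INCENP, BIRC5 and CDCA8) corrects faulty attachments, and the spindle checkpoint (BUB1, BUB1B, BUB3, MAD2L1 and TTK) holds the cell until all chromosomes are attached. CDC20 and UBE2C then act with the anaphase-promoting complex, a ubiquitin ligase, to destroy securin (PTTG1) and free separase (ESPL1). Kinesins are motor proteins that move along microtubules or take them apart. Most of these genes are transcribed late in the cell cycle, in G2 and mitosis, under factors such as FOXM1 and the MuvB complex, and are low in resting cells. In RNA from a whole culture, a larger share of cells in G2 or mitosis cannot be told apart from more RNA of these genes per cell, and this holds for every value below.

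The cell cycle genes homology region (CHR), through which the MuvB complex binds many late cell cycle promoters, was looked for in the promoters of these genes. RefSeq promoters of build GRCh38.p14, with 250 bases before and 50 after the annotated start, were matched for 41 of the 50 genes. The motif TTTGAA, on either strand, was in 27 of these 41 promoters (65.9%) and in 15.2% of all 35116 promoters of the same length. A CCAAT box (CCAAT, on either strand) was in 30 of the 41 (73.2%) against 34.6% of all promoters, and both motifs together were in 22 (53.7%) against 5.9%. E2F-like motifs (TTGGCGC or the variant TTCGCGC or the variant TTCCCGC, on either strand, of which the first can overlap a reversed CCAAT box) were in 10 of the 41 (24.4%) against 11%. These are counts of letters and not of sites in use, and the motifs were not used to choose the genes.

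Windows of 30 bases around TTTGAA are shown for 5 genes whose level passed the test under TSA and for 3 that did not, so that the same element can be seen in both. Each reads along the gene's own strand towards the gene, the capitals mark the motif (TTCAAA is the same motif on the opposite strand), and positions count from the annotated start at 0.
PLK1, chr16:23678848-23678877, plus strand, motif at -29: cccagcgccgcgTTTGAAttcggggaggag
CDCA8, chr1:37692481-37692510, plus strand, motif at -23: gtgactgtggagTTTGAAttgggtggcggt
CDCA3, chr12:6851272-6851301, minus strand, motif at -3: cgtggcgggaagTTTGAAactggtaacttc
KIF4A, chrX:70290058-70290087, plus strand, motif at -34: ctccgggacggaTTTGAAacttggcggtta
KIF15, chr3:44761747-44761776, plus strand, motif at -35: ccaagcgccaaaTTCAAAtttgcggccatc
BUB1B, chr15:40161034-40161063, plus strand, motif at -23: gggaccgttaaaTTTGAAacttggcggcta
KIF11, chr10:92593090-92593119, plus strand, motif at -28: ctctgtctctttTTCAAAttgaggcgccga
PRC1, chr15:90994538-90994567, minus strand, motif at -20: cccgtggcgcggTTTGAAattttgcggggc
Of the 17 matched genes that were higher in any comparison with TSA described below, 10 (58.8%) held the CHR motif, and of the 22 matched genes called in none of them, 16 (72.7%) did; KIF15 and CENPK were the matched genes that fell. The motif was thus in members that were called and in members that were not. A member that was not called may still have changed: PRC1 had a log2 fold change of 0.48 under TSA alone (adjusted p = 0.0502, limma).

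UHRF1 depletion alone moved no mitotic gene past the test. In siUHRF1 against siCONT, 0 of 50 genes were called by limma at an adjusted p below 0.05, where the background over all 23709 probes tested was 0.536%. Of probes above background on all 9 arrays, as every member was, 0.127% were called higher and 0.0146% lower. No member had an unadjusted limma p below 0.05 either, against 8.87% of all probes. That share includes dim probes and was not taken for probes above background on all 9 arrays. The log2 fold changes ran from -0.18 (DLGAP5) to 0.35 (SPC24), with a median of 0.056 beside -0.004 for all probes, and 31 of 50 were above 0, against 49.1% of all probes. Without siUHRF1 replicate 1 the members' median lay below that of all probes (0.033 against 0.070), so even the sign of this gap rests on 1 array. Without siUHRF1 replicate 2 the gap was 0.091, and with no filter on dim probes 0.15. The methods' t-test, which uses the spread of each gene by itself, gave 3 genes at an unadjusted p below 0.05 and none after adjustment. PLK1, the kinase that drives entry into and progress through mitosis, had log2 levels of 0.20 and 0.21 in siCONT and 0.22 and 0.33 in siUHRF1. BUB1, a checkpoint kinase at the kinetochore, had 1.76 and 1.72 in siCONT and 1.72 and 1.73 in siUHRF1. For both genes the difference between the groups was less than its standard error of 0.09.

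**Figure D1:**
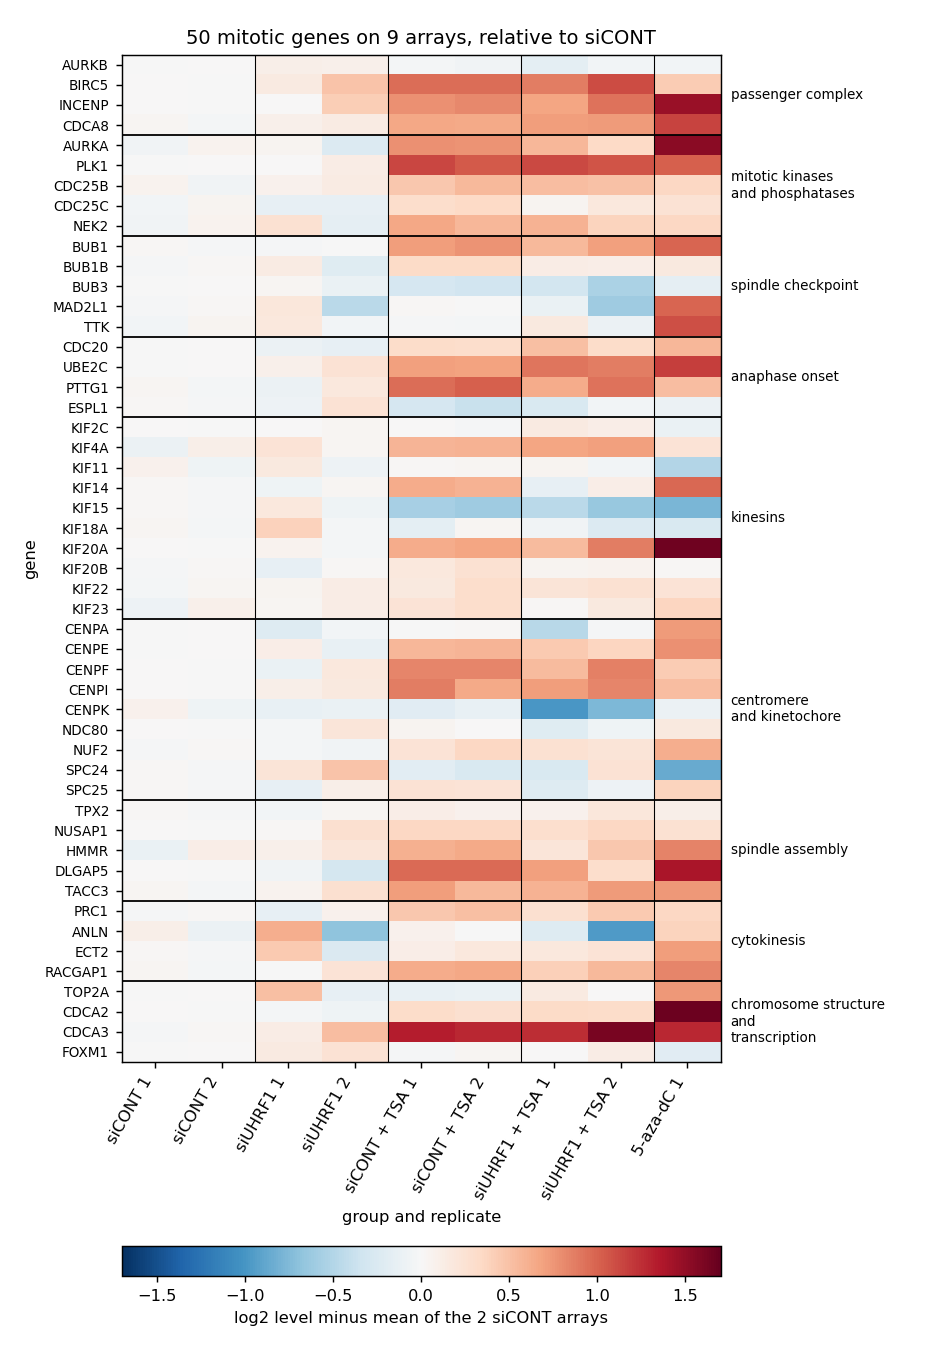
Log2 level of each of the 50 genes (rows, grouped by role) on each of the 9 arrays (columns), minus the mean of the 2 siCONT arrays. Red is higher and blue lower than siCONT. The 4 TSA arrays and the 5-aza-dC array are red for most passenger complex, kinase and anaphase genes, KIF15 is blue on all 5 of them, and CENPK is blue mainly on the 2 siUHRF1 + TSA arrays.

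TSA alone raised 20 of the 50 mitotic genes and lowered 1. Those that rose included the kinases PLK1, AURKA and BUB1, the passenger subunits BIRC5, INCENP and CDCA8, and the anaphase genes UBE2C and PTTG1. The gene that fell was KIF15, a kinesin that supports spindle bipolarity. In siCONT + TSA against siCONT, 6.47% of all probes were called higher and 3.93% lower. The median log2 fold change of the 50 genes was 0.31, beside 0.069 for all probes. Another 29 genes were not called, among them the checkpoint genes MAD2L1 and TTK, the outer kinetochore genes NDC80, NUF2, SPC24 and SPC25, and FOXM1 and TOP2A. These counts rest on both arrays of each group: with either siCONT array or either siCONT + TSA array left out, which leaves 1 array assumed to vary like the others, 0 or 1 members were called. After normexp background correction 2 members were called, and the members' median lay 0.24 above that of all probes in the main setting but at -0.001 relative to it with normexp. Scaling on spike-in probes moved the median of all probes from 0.069 to -0.097 and called 5. It shifts all probes of an array by the same amount, so it cannot change the gap of 0.24. With no filter on dim probes the gap was 0.16.

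Among the passenger complex, 3 of 4 subunits rose under TSA. CDCA8 (borealin) had log2 levels of 3.89 and 3.83 in siCONT and 4.52 and 4.51 in siCONT + TSA. BIRC5 (survivin) had 5.13 and 5.13 in siCONT and 6.07 and 6.08 in siCONT + TSA. The groups did not overlap for either gene, as was so for 75.6% of all probes in this comparison, and the log2 fold changes were 0.66 (adjusted p = 0.0134) and 0.95 (adjusted p = 0.0174, limma). INCENP, the scaffold of the complex, rose by 0.79. AURKB, its kinase, had 1.07 and 1.08 in siCONT and 1.05 and 1.008 in siCONT + TSA, a log2 fold change of -0.05 (adjusted p = 0.768). The subunits that hold the kinase were therefore called higher while the kinase itself was not called.

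Of the 5 mitotic kinases and phosphatases, 3 rose. PLK1 went from log2 levels of 0.20 and 0.21 to 1.34 and 1.25, a 2.13-fold rise (log2 fold change 1.09, standard error 0.09, adjusted p = 0.00668). AURKA, the kinase of the spindle poles, went from 1.84 and 1.96 to 2.68 and 2.66 (0.77, adjusted p = 0.0240). CDC25B, a phosphatase that activates CDK1, had 2.04 and 1.92 in siCONT and 2.44 and 2.53 in siCONT + TSA (0.50, adjusted p = 0.0282). NEK2, a kinase of centrosome separation, and CDC25C, another CDK1 phosphatase, had changes of 0.61 and 0.32 that missed the threshold (adjusted p = 0.0661 and 0.0820). NEK2's second probe did pass it, with 0.80 (adjusted p = 0.0142) here and 0.47 (adjusted p = 0.0277) in siUHRF1 + TSA against siCONT, so its call depends on the probe. PLK1 was read by a second probe elsewhere in the transcript, and both probes are shown because they read separate parts of it. On build hg19, as the array files give it, they lie at chr16:23700970-23701212, a span longer than the probe, and at chr16:23692251-23692310.
PLK1, brighter probe: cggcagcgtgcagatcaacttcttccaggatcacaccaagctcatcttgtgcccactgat
PLK1, second probe: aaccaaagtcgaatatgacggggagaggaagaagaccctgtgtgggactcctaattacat
Their log2 fold changes were 1.09 and 1.11 under TSA alone, 1.10 and 1.07 in siUHRF1 + TSA against siCONT, and 1.03 and 1.12 in siUHRF1 + TSA against siUHRF1. In these 3 comparisons the probes gave nearly the same change, whereas with 5-aza-dC they gave 1.015 and 0.65.

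Of the 5 spindle checkpoint genes 1 was called, and their median was 0.003. BUB1 rose from log2 levels of 1.76 and 1.72 to 2.45 and 2.51 (log2 fold change 0.74, adjusted p = 0.0122). BUB1B, the checkpoint protein BubR1, had 2.64 and 2.69 in siCONT and 2.98 and 2.98 in siCONT + TSA. It was not called (adjusted p = 0.162, limma), and its groups did not overlap, as was so for 75.6% of all probes. MAD2L1, which with BubR1 inhibits CDC20, had 2.57 and 2.63 in siCONT beside 2.62 and 2.59 in siCONT + TSA, and TTK, the kinase that starts checkpoint signalling, had -0.68 and -0.58 beside -0.65 and -0.66. For MAD2L1 and TTK the groups overlapped.

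Of the 4 anaphase genes, the ubiquitin-conjugating enzyme UBE2C rose by 0.69 (3.58 and 3.59 in siCONT, 4.28 and 4.27 in siCONT + TSA, adjusted p = 0.0151), and securin, PTTG1, rose by 0.98 (5.43 and 5.37, then 6.35 and 6.41, adjusted p = 0.0163). CDC20, the activator of the anaphase-promoting complex, had 2.29 and 2.29, then 2.60 and 2.59, and did not pass (adjusted p = 0.106). ESPL1, separase, had 3.04 and 2.99, then 2.72 and 2.64, which was lower on both arrays but not called (adjusted p = 0.183). Securin and separase, which bind each other, therefore had changes of opposite sign, of which only securin's passed the test. PTTG1 has near-identical relatives in the genome, and the specificity of its probe was not checked.

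The 10 kinesins split. KIF4A (chromokinesin), KIF14 and KIF20A (both of the central spindle and cytokinesis) rose, KIF15 fell and 6 were not called. KIF4A had 0.76 and 0.96 in siCONT and 1.44 and 1.44 in siCONT + TSA (log2 fold change 0.58, adjusted p = 0.0329). KIF20A, read by 10 spots of 1 probe on each array, had -0.15 and -0.16 in siCONT and 0.48 and 0.52 in siCONT + TSA (log2 fold change 0.65, adjusted p = 0.0307). KIF14 had 0.07 and 0.04 in siCONT and 0.68 and 0.64 in siCONT + TSA (0.61, adjusted p = 0.0280). KIF15 had 1.28 and 1.25 in siCONT and 0.70 and 0.67 in siCONT + TSA (-0.58, adjusted p = 0.0372), so it moved against the other called motors. KIF11, the motor with which KIF15 shares the task of pushing the spindle poles apart, had 1.78 and 1.64, then 1.73 and 1.74 (0.03, adjusted p = 0.90). KIF2C, which shortens microtubules at the centromere, had 4.43 and 4.41, then 4.44 and 4.40. The rest (KIF18A, KIF20B, KIF22 and KIF23) had log2 fold changes between -0.07 and 0.27. Other probes of 3 kinesins gave smaller or opposite values: 0.27 for KIF4A (adjusted p = 0.255, against 0.58 for its brightest probe), -0.20 for KIF20B and -0.18 for KIF23, none of them called.

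Of the 9 centromere and kinetochore genes, 3 rose: CENPE, a motor protein of the kinetochore (0.57), CENPF, a large outer kinetochore protein (0.83), and CENPI, of the inner kinetochore (0.76). CENPF had 4.54 and 4.53 in siCONT and 5.36 and 5.36 in siCONT + TSA, and its second probe gave 0.99. CENPI was read by 3 probes whose values differed: the brightest was called (adjusted p = 0.0170), while the others gave 0.75 and 0.49 and were not called. The centromeric histone CENPA had 0.48 and 0.50, then 0.48 and 0.51. The NDC80 complex, which binds the microtubule, had log2 fold changes of 0.02 (NDC80), 0.29 (NUF2), -0.21 (SPC24) and 0.23 (SPC25), none of them called.

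Of the 5 spindle assembly genes, DLGAP5 (0.96), TACC3 (0.64) and HMMR (0.63) rose. DLGAP5, which stabilises microtubules near chromosomes, had 0.95 and 0.94 in siCONT and 1.91 and 1.91 in siCONT + TSA. TACC3, which crosslinks spindle microtubules, had 1.13 and 1.06, then 1.81 and 1.65. The groups did not overlap for either gene, as for 75.6% of all probes. TPX2, the activator of AURKA, had 2.69 and 2.66, then 2.79 and 2.75, and was not called although its partner AURKA was. Of the 4 cytokinesis genes, RACGAP1, a regulator of the small GTPases that form the contractile ring, rose from 1.27 and 1.21 to 1.87 and 1.90 (0.64, adjusted p = 0.0254). PRC1, which bundles the central spindle, had 4.05 and 4.08, then 4.52 and 4.57, and just missed the threshold (adjusted p = 0.0502). ECT2 and the ring protein ANLN had 0.14 and 0.03. Of the last 4 genes, CDCA3 rose most of all 50, from 1.36 and 1.40 to 2.72 and 2.66, a 2.48-fold rise (log2 fold change 1.31, adjusted p = 0.0137). CDCA3 takes part in the destruction of the mitosis inhibitor WEE1. FOXM1, a transcription factor that drives many genes of this kind, had 2.45 and 2.47, then 2.43 and 2.49 (0.01, adjusted p = 0.972).

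**Figure D2:**
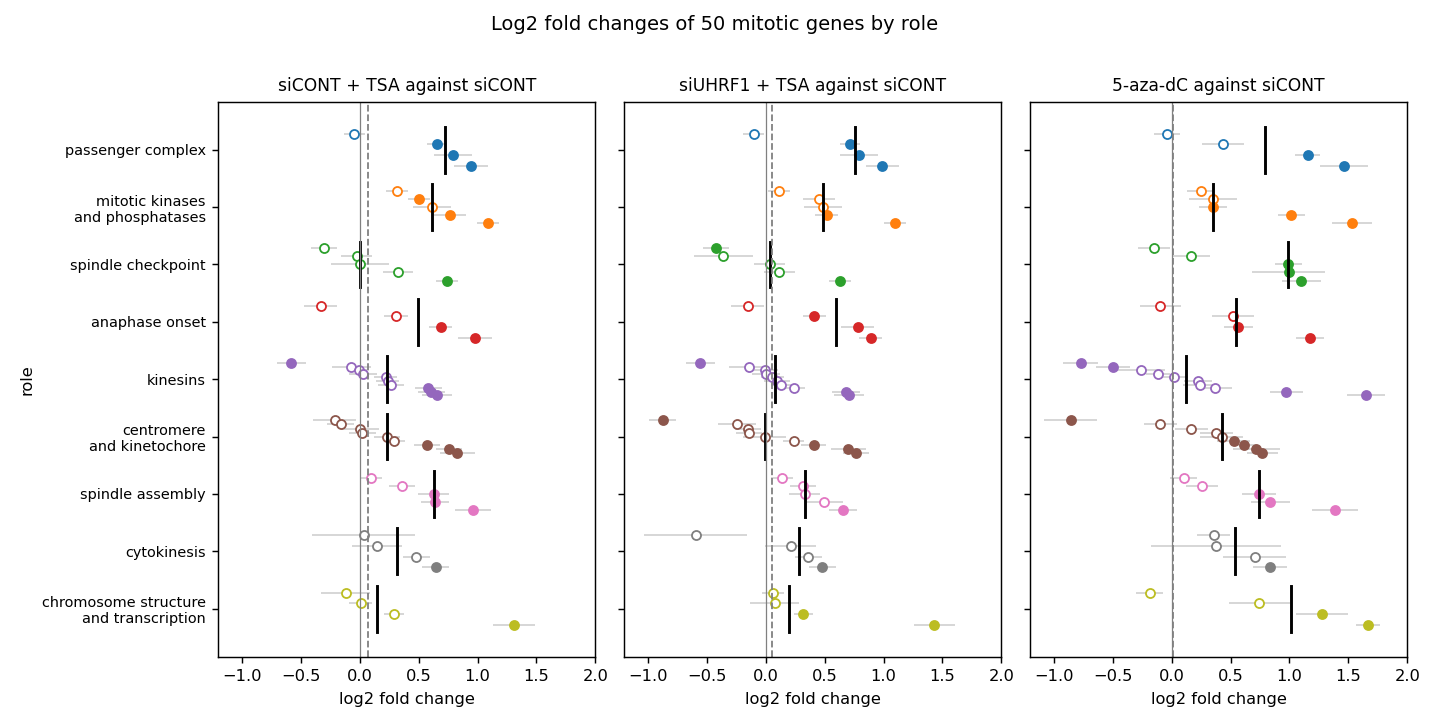
Log2 fold changes of the 50 genes (points) by role (rows) in 3 comparisons against siCONT, with standard errors in grey. Filled points were called, black bars are role medians and the dashed line is the median of all probes tested. Under TSA the medians are highest for the passenger complex (0.72), spindle assembly (0.63) and the kinases and phosphatases (0.61), and that of the spindle checkpoint is 0.003, whereas with 5-aza-dC the spindle checkpoint median is 0.99.

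In UHRF1-depleted cells TSA raised 17 mitotic genes and lowered 2. In siUHRF1 + TSA against siUHRF1, 9.87% of all probes were called higher and 5.48% lower, and the members' median was 0.18 beside 0.071 for all probes. With no filter on dim probes the medians were 0.18 and 0.17, and without siUHRF1 replicate 1 they were 0.25 and -0.0043. This comparison shares no array with siCONT + TSA against siCONT, but both come from 1 fit and share its estimate of the spread, so calls made in both are a description and not independent agreement. Of the genes that TSA raised, 15 were called in both, which is 15 of 20 without depletion and 15 of 17 with it: AURKA, BIRC5, CDCA8, BUB1, PLK1, CDC25B, UBE2C, PTTG1, KIF4A, KIF20A, CENPF, CENPI, DLGAP5, TACC3 and CDCA3. Among these 15 genes, CENPI and KIF4A were called by their brightest probe only. In depleted cells the other probes of CENPI gave -0.13 and 0.07 and that of KIF4A gave 0.44, none of them called. The second probes of PLK1 (1.12) and CENPF (0.66) were called. KIF15 fell in both comparisons. INCENP, KIF14, CENPE, RACGAP1 and HMMR were called only without depletion and CDC20 and CDCA2 only with it, and the difference between the effects was called for none of them. PLK1 went from 0.22 and 0.33 in siUHRF1 to 1.33 and 1.28 in siUHRF1 + TSA (log2 fold change 1.03, adjusted p = 0.00314). CDCA3 went from 1.504 and 1.90 to 2.63 and 2.996 (1.11, adjusted p = 0.0137), with siUHRF1-2 the higher of the siRNAs in both groups. KIF15 went from 1.45 and 1.198 to 0.80 and 0.62 (-0.61, adjusted p = 0.0254). The number of calls fell to 6 with either siCONT array left out, to 7 with either siCONT + TSA array, to 10 without siUHRF1 replicate 1 and to 9 without either siUHRF1 + TSA array, and it was 3 after normexp and 3 after spike-in scaling, where the members' median was -0.008 against -0.12 for all probes. With only the groups compared in the fit the number of calls was 0, and the methods' t-test with adjustment also gave 0. The calls thus rest on a spread shared with the control groups. Over the members, the arrays of a group differed by a median of 0.034 in siCONT and 0.038 in siCONT + TSA, against 0.205 in siUHRF1 and 0.14 in siUHRF1 + TSA. The number of calls was 30 when the siRNA of the UHRF1-depleted arrays was fitted as a block, an alternative chosen after the data were seen.

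**Figure D3:**
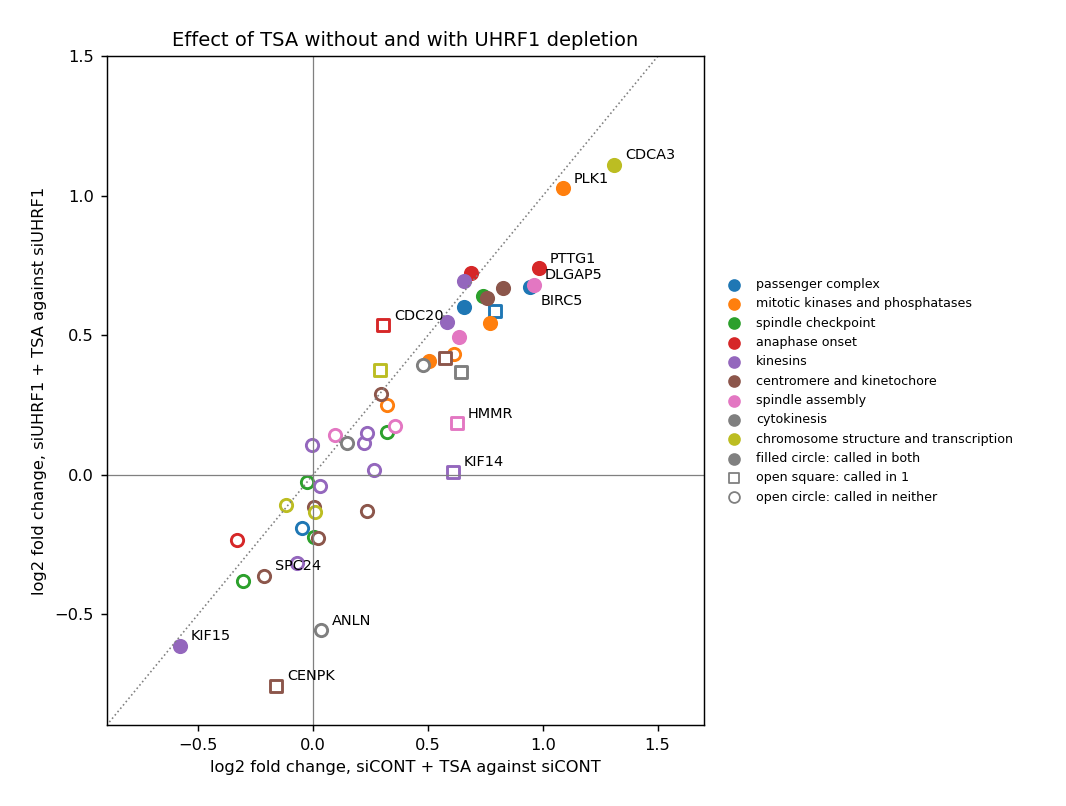
Log2 fold change under TSA without UHRF1 depletion (horizontal axis) and with it (vertical axis) for the 50 genes, coloured by role. The dotted line marks equal change. The 15 genes called higher in both sit at the upper right, KIF15 is the filled point at the lower left, and KIF14, HMMR, ANLN and CENPK lie furthest below the line.

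Against siCONT, UHRF1 depletion with TSA raised 18 mitotic genes and lowered 3 (KIF15, BUB3 and CENPK). Of all probes, 14.9% were called higher and 8.2% lower, so the share of mitotic genes called higher was 18 of 50 against a background that was itself larger than under TSA alone. The members' median was 0.24 beside 0.052 for all probes. The most strongly changed were CDCA3 (log2 levels 2.63 and 2.996 against 1.36 and 1.40, a 2.70-fold rise, adjusted p = 0.00395) and PLK1 (1.33 and 1.28 against 0.20 and 0.21, 2.14-fold, adjusted p = 0.00131). UBE2C (0.89), BIRC5 (0.99), CDCA8 (0.72), BUB1 (0.63), KIF4A (0.68), TACC3 (0.66) and RACGAP1 (0.48) also rose. The calls of BIRC5, CDCA3, PLK1 and UBE2C in this comparison were kept under the limma alternatives. The methods' t-test with adjustment called 1 of the 50 genes here, so at least 3 of these calls were lost under it. By role, 3 of 4 passenger genes, 3 of 4 anaphase genes, 2 of 5 kinases and phosphatases, 1 of 5 checkpoint genes, 2 of 10 kinesins, 3 of 9 centromere and kinetochore genes, 1 of 5 spindle assembly genes, 1 of 4 cytokinesis genes and 2 of the last 4 were called higher. With either siCONT array left out 6 or 7 of the 50 were called in either direction in place of 21, and without siUHRF1 + TSA replicate 2 there were 13. There were 8 after normexp, 8 after spike-in scaling (members' median 0.069, all probes -0.12) and 13 with no filter on dim probes.

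Some members had values of the opposite sign to most of their role group. BUB3, a checkpoint protein, had log2 levels of 3.58 and 3.59 in siCONT and 3.27 and 3.05 in siUHRF1 + TSA (-0.42, adjusted p = 0.0409), but its second, dimmer probe gave 0.14 (adjusted p = 0.591), so the fall belongs to 1 probe. MAD2L1 had 2.57 and 2.63 against 2.49 and 1.99 (-0.36, adjusted p = 0.341), and the lower value was that of siUHRF1-2. AURKB (-0.10), ESPL1 (-0.15) and KIF18A (-0.14) were not called. Among the centromere and kinetochore genes, 4 of 9 were above 0, against 55.4% of all probes. SPC24 had -0.008, so the sign of most of this role rests on a value near 0. CENPE (0.41, adjusted p = 0.0424), CENPF (0.70, adjusted p = 0.0207) and CENPI (0.77, adjusted p = 0.00685, limma) rose. NUF2 had 0.24 (adjusted p = 0.110, limma), and of the genes below 0 only CENPK was called. The other CENPI probes gave -0.03 and 0.04 here, so the rise of CENPI also rests on 1 of its 3 probes. ANLN had -0.04 and -0.23 in siCONT and -0.36 and -1.11 in siUHRF1 + TSA (-0.59, standard error 0.44, adjusted p = 0.371).

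KIF14 and CENPK were the members in which UHRF1 depletion passed the test among TSA-treated cells. In siUHRF1 + TSA against siCONT + TSA, 0 of 50 genes were called higher and 2 lower, where 2.91% of all probes were called higher and 0.548% lower. Of probes above background on all 9 arrays, as every member was, 1.29% were called higher and 0.546% lower. KIF14, whose probe lies at chr1:200521324-200521383 (hg19), had log2 levels of 0.68 and 0.64 in siCONT + TSA and -0.08 and 0.17 in siUHRF1 + TSA, which is back near its siCONT levels of 0.07 and 0.04 (-0.62, 1.53-fold lower, standard error 0.11, adjusted p = 0.0452). CENPK, an inner kinetochore protein of the complex that holds CENPI and CENPH, has its probe at chr5:64813813-64813872 (hg19). It had -1.04 and -1.18 in siCONT, -1.23 and -1.21 in siUHRF1, -1.30 and -1.24 in siCONT + TSA and -2.10 and -1.86 in siUHRF1 + TSA. Only the arrays with both treatments were low, and they were below all others (-0.71 against siCONT + TSA, 1.64-fold lower, adjusted p = 0.0281). Against siCONT, CENPK fell by 0.87 (adjusted p = 0.00480).

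The test of non-additivity did not reach the threshold for either gene. When the effect of depletion in TSA-treated cells was set against that in mock-treated cells, limma called 0 of 50 members, against 0.359% of all probes. Of probes above background on all 9 arrays, as every member was, 0.0146% were called higher and 0% lower. At an unadjusted p below 0.05 there were 2 members, KIF14 (-0.60, standard error 0.16, adjusted p = 0.562) and CENPK (-0.60, standard error 0.16, adjusted p = 0.566), against 4.9% of all probes. The median difference was -0.13, beside -0.001 for all probes, and 8 of 50 members were above 0, against 49.8% of all probes. With normexp the members' median lay 0.034 above that of all probes and 22 were above 0, and without siUHRF1 replicate 1 it lay at -0.05 relative to all probes and 16 were above 0. The calls of KIF14 and CENPK against siCONT + TSA were kept in 8 and 11 of 21 limma alternatives. Both were lost with either siCONT or either siCONT + TSA array left out, after normexp, after spike-in scaling, with no filter on dim probes, with only the groups compared in the fit and with a replicate block. Without siUHRF1 + TSA replicate 1 neither was called, and without either siUHRF1 array 1 of them was. Over the 21, their log2 fold changes lay between -0.75 and -0.44 for KIF14 and between -0.83 and -0.56 for CENPK. Filters, blocks, the groups-only fit and leaving out an array outside this comparison cannot change these values, so their sign was fixed there.

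**Figure D4:**
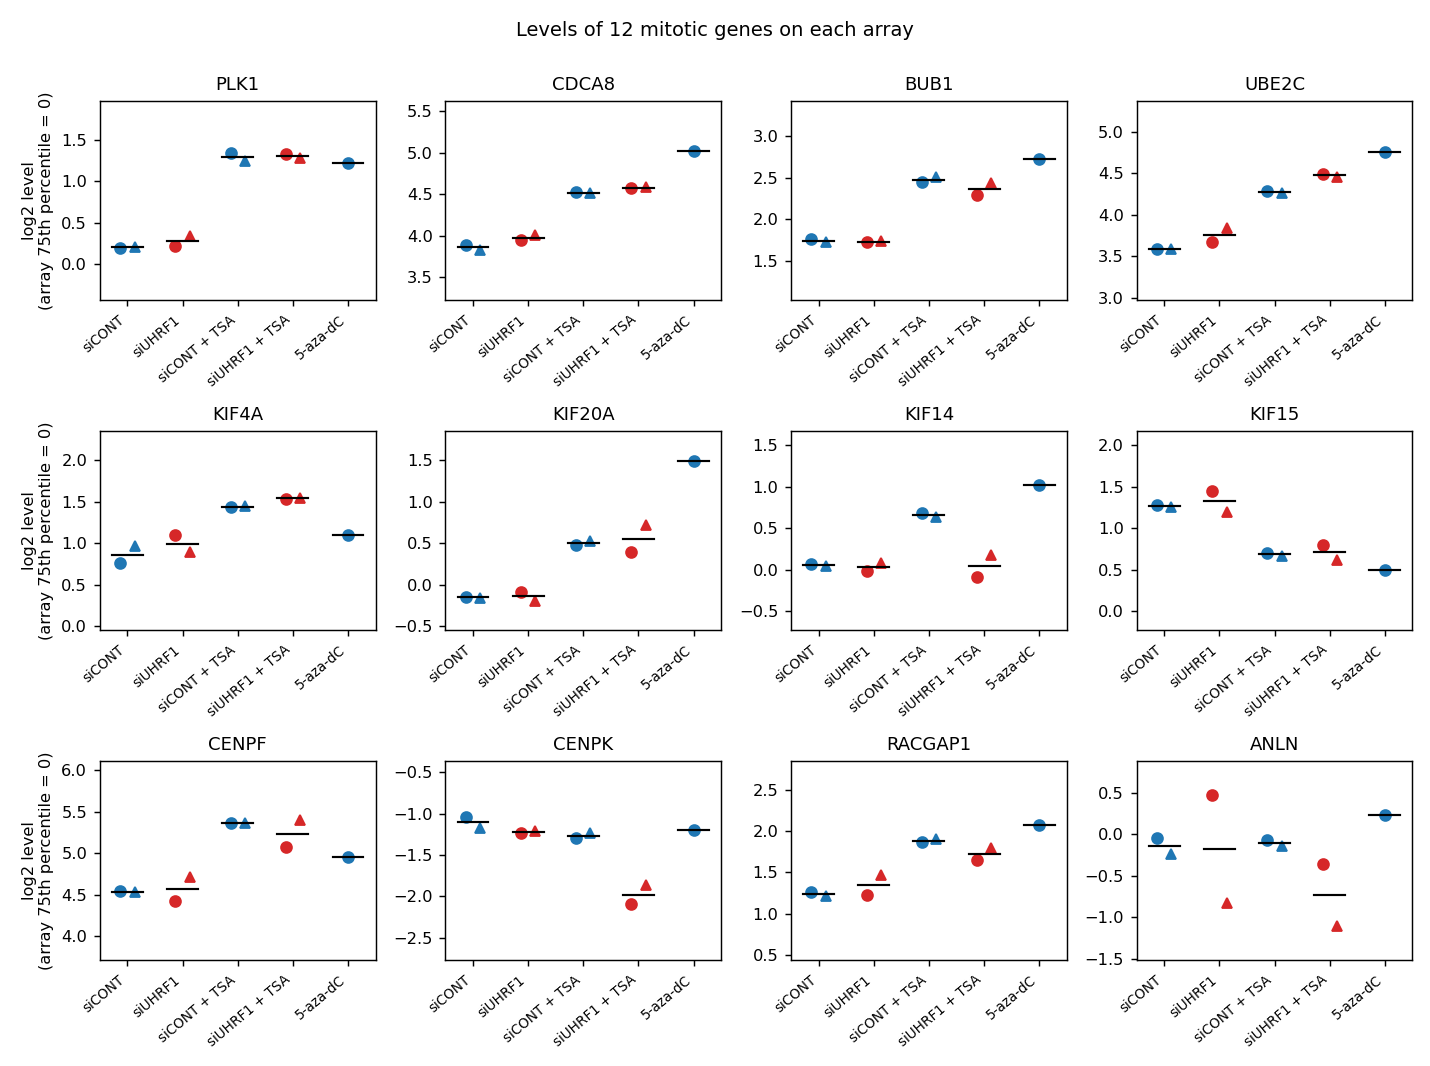
Log2 level of 12 genes on each array, where 0 is the array's 75th percentile, circles are replicate 1 (siUHRF1-1 where UHRF1 was depleted, in red), triangles replicate 2 (siUHRF1-2) and bars group means; each panel spans 2.4 log2 units. PLK1, BUB1 and RACGAP1 are high with TSA with or without depletion, KIF14 is high only without it, KIF15 is low on all TSA arrays, CENPK is low with both treatments, and ANLN differs most between the siRNAs.

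The arrays of the UHRF1 siRNAs differed from each other more than the control arrays did. Over the 50 genes the median absolute log2 difference between siUHRF1-1 and siUHRF1-2 was 0.21 with mock and 0.14 with TSA, whereas the 2 siCONT arrays differed by 0.034 and the 2 siCONT + TSA arrays by 0.038. The same was seen over all probes, with 0.26, 0.19, 0.070 and 0.076 in that order, so it is not particular to these genes. ANLN, an actin-binding protein of the cleavage furrow, had 0.48 with siUHRF1-1 and -0.82 with siUHRF1-2 in mock cells, on either side of its siCONT levels of -0.04 and -0.23, and -0.36 and -1.11 with TSA. MAD2L1 had 2.79 and 2.14 with mock and 2.49 and 1.99 with TSA, in both cases lower with siUHRF1-2. ECT2, which activates RhoA at the cell equator, differed with mock (0.74 and 0.05) and hardly with TSA (0.48 and 0.53). Of the 50 genes, 41 had a difference between the siRNAs of the same sign with mock and with TSA, against 68.3% of all probes. In mock cells both siRNA arrays lay above the siCONT mean for 18 members and both below it for 8, and they lay on opposite sides for 24, where all probes gave 26.5%, 23.7% and 49.8%. These differences were not tested.

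**Figure D5:**
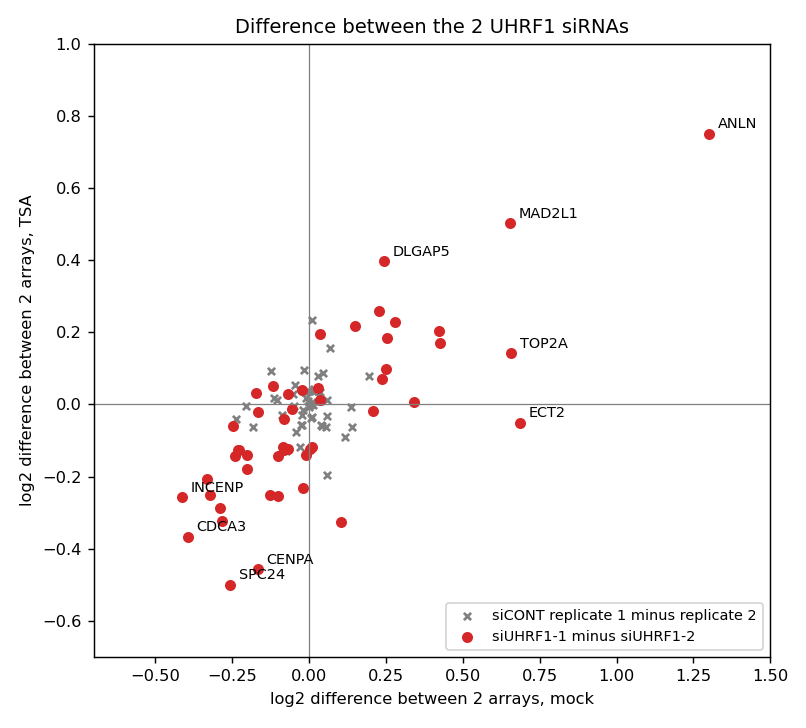
Log2 difference between the siUHRF1-1 and siUHRF1-2 arrays for each of the 50 genes (red points) with mock (horizontal axis) and TSA (vertical axis), and the difference between the 2 control arrays for the same genes (grey crosses). The crosses lie within 0.24 of 0 on both axes, and the red points spread along the diagonal, with ANLN at 1.30 and 0.75.

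On the 5-aza-dC array 22 mitotic genes were called higher and 3 lower than in siCONT. The background in this comparison was 24.1% of 27161 probes higher and 24.7% lower, so 48.8% of probes were called in all. That set includes dim probes that passed the filter on the 5-aza-dC array alone. Of the 20500 probes above background on all 9 arrays, as every member was, 17.6% were called higher and 29.2% lower. The direction depends on the scaling. The members' median was 0.43, or 0.42 above that of all probes. Scaling on spike-in probes put all probes at a median of -1.66 and the members at -1.24, with 0 members above 0. This scaling shifts all probes of an array alike, so it cannot change the gap of 0.42. The gap was 0.85 with normexp and 0.88 with no filter on dim probes. Relative to the other probes of the array, CDCA2 (a chromatin-bound regulator of phosphatase PP1) was 2.59 against 0.94 and 0.92 in siCONT, KIF20A was 1.496 against -0.15 and -0.16, AURKA was 3.43 against 1.84 and 1.96, and INCENP was 2.78 against 1.32 and 1.31. Their log2 fold changes were 1.67, 1.65, 1.53 and 1.46. The checkpoint genes MAD2L1 (0.99) and TTK (1.10) were called higher here, as were CENPA (0.72) and NUF2 (0.61), with the spread of the single 5-aza-dC array taken from the other groups. These 4 genes were not called under TSA, but the drugs were not tested against each other. CENPA, the histone that marks the centromere, was 1.21 against 0.48 and 0.50.

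The 3 members called lower with 5-aza-dC were KIF11 (1.21 against 1.78 and 1.64, log2 fold change -0.50, adjusted p = 0.0345), KIF15 (0.49 against 1.28 and 1.25, -0.77, adjusted p = 0.00823) and SPC24 (0.39 against 1.26 and 1.23, -0.86, adjusted p = 0.0239). KIF11 and KIF15 both push the spindle poles apart. SPC24's second probe gave -1.25. BUB3 had -0.15 by its brightest probe and was not called, while its dimmer probe was called higher (0.72, adjusted p = 0.0320). BIRC5, PTTG1 and CENPF, which rose by 0.83 to 0.98 under TSA alone, had 0.43, 0.52 and 0.43 here and were not called by their brightest probes. Dimmer probes were called higher for CENPF (0.45, adjusted p = 0.0364), NEK2 (0.85, adjusted p = 0.00383) and KIF23 (0.80, adjusted p = 0.0272). These comparisons share the siCONT arrays, so their values are set side by side with no measure of likeness, and with a single array whose spread is assumed, 18 to 31 members were called when any one of the other arrays was left out.

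Genes of related processes from 5 further lists are given for context. Over all probes, 6.47% were called higher and 3.93% lower under TSA alone, and 14.9% and 8.2% in the combination. A count near these shares is not particular to its list. Of 20 other spindle, motor and cytokinesis genes, 6 rose and 0 fell under TSA alone and 6 and 0 in the combination, led by PIMREG (FAM64A on the array, 1.79 in the combination, adjusted p = 0.00270). Of 30 other kinetochore and checkpoint genes, 2 rose and 6 fell under TSA alone and 2 rose and 8 fell in the combination, with KNTC1, a checkpoint protein that recruits dynein, at the lowest p (-1.27, adjusted p = 0.00186). The list holds 11 further CENP genes of the inner kinetochore, to which CENPK belongs, and they were looked at after their values were seen. In the combination CENPH (-0.57), CENPP (-0.81), CENPQ (-0.86) and CENPU (-0.74) fell, CENPO rose (0.43) and 6 were not called. CENPU is listed as MLF1IP on the array. These 4 also fell under TSA alone, by 0.64 (CENPH), 0.64 (CENPP), 0.67 (CENPQ) and 0.64 (CENPU), where CENPW rose (0.72), 6 were not called and CENPK had -0.16 and was not called. Of 15 genes of the anaphase-promoting complex, 2 rose and 1 fell under TSA alone and 5 and 1 in the combination, with FZR1, its activator in late mitosis and G1, at 1.12 (adjusted p = 0.00395). Of 13 condensin and cohesin genes, 2 rose and 2 fell, then 1 and 3, with NCAPD3 at -0.64 (adjusted p = 0.00606).

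Of 25 DNA replication genes, which act in S phase, 0 rose and 11 fell under TSA alone (median -0.62) and 0 rose and 17 fell in the combination (median -0.82), with PRIM1, a primase subunit, at -1.45 (adjusted p = 0.000335). In siUHRF1 against siCONT no gene of the 5 lists was called, where 0.536% of all probes were, so this is not particular to the lists. The share of cells in each phase of the cell cycle was not measured on these arrays, and its part in these values was not tested.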

How the data were processed

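RNA of 9 RKO samples was hybridised to 1-colour Agilent human expression arrays. The deposited values used here are the intensities that the authors' Feature Extraction software (10.7.3.1 per the file headers) wrote for each spot after background subtraction (gProcessedSignal). The sources used here name GeneSpring GX and t-tests but do not give the normalization.

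Outlier spots were dropped, spots of a probe averaged on the log2 scale, and each array's log2 75th percentile subtracted. A probe was kept if both arrays of 1 group or more read it well above background. For the 5-aza-dC fit a reading on the single 5-aza-dC array was also enough. This left 23709 probes for the siRNA arrays and 27161 for 5-aza-dC. limma 3.58.1 (R 4.3.3) was fitted to the 8 siRNA arrays, and to all 9 arrays for 5-aza-dC, with Benjamini-Hochberg adjustment over all probes kept, and a gene was called at an adjusted p below 0.05. Of the members, the text names 1 or more per role by a rule. It took the lowest p in the role, a sign opposite to most of the role, and any call for UHRF1 depletion or the difference between effects. The members, lists and this rule were chosen with earlier results of these data known. Other members are named outside the rule, in summaries of their role, and those given first for 5-aza-dC were picked by their large values. The script was tested on simulated data. Array number limits the precision. Replicate numbers paired samples only between siUHRF1 and siUHRF1 + TSA, whose arrays share an siRNA (r = 0.456 of their deviations, against -0.04 to 0.065 for other pairs of groups). The alternatives were other background corrections, scalings, filters, probe choices, blocks, tests and leaving out each array.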

Additional observations from a re-analysis of the deposited data

How the results depend on the processing

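With 2 arrays a group, the counts of mitotic genes called depended on the setting. Filters, blocks, the estimate of the spread, fitting only the groups compared and leaving out an array outside the comparison cannot change a gene's fold change. In these settings a kept direction was fixed in advance, and the genes were chosen as called on the same arrays. Of 1773 values of the called genes under the limma alternatives, 1305 kept direction and call, 446 kept the direction only and 22 reversed. In siCONT + TSA against siCONT (21 called), normexp gave 2, spike-in scaling 5, no filter on dim probes 5, only the groups compared 34, the methods' t-test without adjustment 35, and leaving out 1 array 0 to 26. In siUHRF1 + TSA against siCONT (21 called), normexp gave 8, spike-in scaling 8, no filter 13, the methods' t-test with adjustment 1, and leaving out 1 array 6 to 25. In siUHRF1 + TSA against siUHRF1 (19 called), normexp gave 3, spike-in scaling 3, no filter 6, only the groups compared 0, the methods' t-test 0 with adjustment and 12 without, and leaving out 1 array 6 to 23. In siUHRF1 + TSA against siCONT + TSA (2 called), normexp, spike-in scaling, no filter, only the groups compared and the adjusted t-test gave 0, the filter on every array 1, unadjusted p 4, the unadjusted t-test 9, and leaving out 1 array 0 to 2. In siUHRF1 against siCONT (0 called), the unadjusted t-test gave 3 and leaving out 1 array 0 to 0. For the difference between effects (0 called), unadjusted p gave 2 and leaving out 1 array 0 to 0. For 5-aza-dC (25 called), spike-in scaling gave 39, all lower, and leaving out 1 array 18 to 31. The cause was not tested. Where an array was left alone in its group, its spread was taken from the remaining groups.

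The replicate block reduced the calls in siUHRF1 + TSA against siCONT + TSA from 2 to 0 and moved no other count by more than 1.5 times. Replicate numbers mark the siRNA only in UHRF1-depleted cells. With the siRNA of those arrays as a block, chosen after the data were seen, the counts were 31 for TSA alone, 29 for the combination, 30 for TSA in depleted cells and 5 for siUHRF1 + TSA against siCONT + TSA. A slide block for 5-aza-dC could not be fitted.

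With spike-in scaling the 22 genes called higher with 5-aza-dC had log2 fold changes below 0: AURKA -0.14, INCENP -0.21, CDCA8 -0.52, BUB1 -0.68, MAD2L1 -0.68, TTK -0.57, PLK1 -0.66, CDC20 -1.11, CDC25B -1.32, UBE2C -0.50, KIF14 -0.70, KIF20A -0.024, CENPA -0.96, CENPE -0.90, CENPI -1.15, NUF2 -1.06, RACGAP1 -0.84, HMMR -0.83, DLGAP5 -0.29, TACC3 -0.93, CDCA2 -0.0081 and CDCA3 -0.40. The median of all probes under this scaling was -1.66.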
